A study of Mus musculus with 3 samples.

Results

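Oxidative phosphorylation is the set of protein complexes in the inner mitochondrial membrane that turns the energy of nutrients into ATP, and its parts are encoded by both the nuclear and the mitochondrial genome. The genes described here are its subunits, taken by gene symbol from the features of the deposited matrices, with the 8 complex I assembly factors of the Ndufaf group that share the symbol pattern. The symbols took in 106 of 32285 features, 13 encoded by mitochondrial DNA (symbols starting with mt-) and 93 by the nucleus. The nuclear set held 36 genes of complex I, 8 complex I assembly factors, 4 genes of complex II, 8 of complex III, 20 of complex IV and 17 of complex V. The mt- set held 7 genes of complex I, 1 of complex III, 3 of complex IV and 2 of complex V, and complex II has no mt- gene. Symbols marked as pseudogenes were left out, and how reads shared with near-identical processed copies of the nuclear genes were counted was not given in the sources used here, so levels of single genes with such copies are uncertain.

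Complex I oxidises NADH and complex II succinate, complex III passes the electrons on to cytochrome c, and complex IV hands them to oxygen. The proton gradient this builds drives complex V, the ATP synthase. The mitochondrial genome is read as long transcripts that are cut into single messenger RNAs, while the nuclear subunits are made from separate genes, copied in the nucleus and imported as proteins. Activated lymphocytes and dividing cells raise this machinery alongside glycolysis, neutrophils are known for few mitochondria and a reliance on glycolysis, and hepatocytes are rich in mitochondria.

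Single-cell RNA was counted by unique molecular identifiers (UMIs, each standing for 1 captured RNA molecule) in 3 libraries of CD45+ cells, which are white blood cells. Live cells were sorted from tumours of the liver in MYC-ON mice of the C57BL6 strain, aged 18 weeks. MYC-ON and the C57BL6 strain are common to all 3 libraries, which are 1 control library, 1 from DU101 treated and 1 from DU102 treated animals. The control library is titled as control while its deposited files carry the name DMSO, a common solvent. The nature, dose and duration of DU101 and DU102, whether control animals received that solvent, the promoter that drives MYC, and how many animals of which sex were used were not given in the sources used here. With 1 library per group there is no replicate and no test. Ranges in brackets are 95% intervals, exact Poisson for a ratio and exact Clopper-Pearson for a share, and they cover counting error only.

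The barcodes numbered 12639 to 15686 per library with 91013198 to 106604935 UMIs, and 10154 control, 13799 DU101 and 11461 DU102 cells were kept, with medians of 6336, 4832 and 5091 UMIs. A cell was put in a class by its markers, 71.4 to 74.7% of kept cells took a class, and names are given as likenesses. Of the classes, 17 had 30 or more cells in each library, and there every marker of the class was detected in every library. Hepatocyte or tumour-like and endothelial-like cells do not carry CD45, so their presence goes against the sort. Of all barcodes, 136 occurred in more than 1 library, 97 of them among kept cells. The libraries differed in sex: Xist, made in female cells, stood at 943 CPM (a depth-scaled count, the UMIs of a gene over all UMIs of its class) in control T-like cells, with 1 UMI in those of DU101 and 0 in those of DU102, and 4 Y-linked genes together at 40.6, 141 and 148 CPM. The control library therefore mixes both sexes, and sex and treatment cannot be told apart in comparisons over all control cells. RNA also differed outside the members: Gm42418, a gene model that overlaps a copy of the ribosomal RNA repeat, stood at 59926, 17175 and 44212 CPM in T-like cells of control, DU101 and DU102, and 7 neutrophil granule and secretory genes together at 268, 1979 and 3721 CPM in the same cells.

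For the nuclear genes, the letters just upstream of the start are shown because most members were lowest in the same class in every library. Of the 93 nuclear members, 75 were matched by symbol to RefSeq promoters (GRCm38.p6) with 80 starts. In a window from 250 bases before to 50 after the start, 8.75% of these starts held the NRF1 motif (GCGCATGCGC), against 0.971% of all 32851 RefSeq promoters. The GABPA motif (CCGGAAG) was in 23.8% of them against 8.86% of all, and the YY1 motif (AAGATGGC) in 12.5% against 2.75%. Both strands were searched, the NRF1 motif reads the same on both. A match is a description of the letters and not a bound site. The 250 bases upstream of 3 members are shown, 5' to 3' on the gene's own strand, with motif matches in capitals. Cox6a1 is the common counterpart of Cox6a2, a complex IV gene that marked plasmacytoid dendritic cell (pDC)-like cells. Uqcr11, of complex III, was the member furthest above its next class after Cox6a2. Atp5j, of complex V, was the subunit gene called higher in B-like cells of DU102. They lie on the minus strand, at chr5:115348959-115349208, chr10:80406822-80407071 and chr16:84834977-84835226 in the same order.
Cox6a1: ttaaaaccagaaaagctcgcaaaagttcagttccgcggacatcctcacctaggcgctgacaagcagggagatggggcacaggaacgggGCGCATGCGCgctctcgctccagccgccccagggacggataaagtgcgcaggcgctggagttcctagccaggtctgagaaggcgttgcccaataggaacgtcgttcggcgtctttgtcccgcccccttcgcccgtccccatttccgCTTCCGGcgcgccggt
Uqcr11: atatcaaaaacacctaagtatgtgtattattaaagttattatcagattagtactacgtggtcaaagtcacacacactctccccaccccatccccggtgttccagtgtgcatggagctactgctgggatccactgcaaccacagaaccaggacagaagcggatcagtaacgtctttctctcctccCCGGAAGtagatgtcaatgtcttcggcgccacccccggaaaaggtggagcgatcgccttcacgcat
Atp5j: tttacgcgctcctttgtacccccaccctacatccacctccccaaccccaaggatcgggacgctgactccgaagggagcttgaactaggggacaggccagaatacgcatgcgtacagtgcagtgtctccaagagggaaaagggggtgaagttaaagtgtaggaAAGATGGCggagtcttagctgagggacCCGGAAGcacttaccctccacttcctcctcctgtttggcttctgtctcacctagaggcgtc

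Cox6a1 held 1 NRF1 and 1 GABPA match, Uqcr11 held 1 GABPA match, and Atp5j held 1 YY1 and 1 GABPA match at this start. The 250 bases upstream of the other RefSeq start of Atp5j, at chr16:84835626-84835875, held none of the 3 motifs. That other start lies at the annotated upstream end of Atp5j, while the stretch shown lies inside the annotated gene.

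Levels across cell classes came first, because they set the scale for the treatment comparisons. The share of all UMIs of a class that fell on the 93 nuclear genes was highest in hepatocyte or tumour-like cells, at 3.58% in control, 3.96% in DU101 and 3.63% in DU102. It was lowest in neutrophil-like cells, at 0.887, 0.971 and 0.840%. Between them stood NK or ILC1-like cells, which are natural killer cells and their tissue relatives, at 2.61, 2.72 and 2.56%, pDC-like cells, which make interferon, at 2.29, 2.40 and 2.38%, monocyte-like cells at 2.28, 2.53 and 2.44%, T-like cells at 2.104, 2.25 and 2.13%, and patrolling monocyte-like cells at 2.01, 2.00 and 1.90%. B-like cells were the second lowest of the 17 classes in control, at 1.31%, with 1.57 and 1.59% in the treated libraries. The lowest and highest classes were thus the same in the 3 libraries, whereas neighbours in the middle of the order, such as pDC-like and monocyte-like cells, changed places between libraries. A trimmed UMI total left out the genes of immunoglobulins with Jchain, ribosomal proteins, haemoglobins and T cell receptors. It also left out a list of hepatocyte genes, Lars2, Gm42418 and the mt- genes. In plasma-like cells, 57.0 to 65.7% of UMIs fell on the genes left out, mt- genes not counted. The nuclear share of that class was 1.63, 1.49 and 1.91% of all UMIs but 4.88, 4.51 and 4.62% of the trimmed total.

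The order of classes by the 13 mt- genes was another one. Hepatocyte or tumour-like (5.58, 3.79 and 3.23%), Kupffer-like (5.25, 3.94 and 4.89%), endothelial-like (5.07, 4.38 and 4.33%) and pDC-like cells (4.81, 3.41 and 4.01%) were at the top in control. The hepatocyte or tumour-like values are sums over uneven cells, and the median cell of that class held 4.08, 1.99 and 1.23% mt- UMIs, below the median Kupffer-like (5.29%), endothelial-like (5.01%) and pDC-like cell (4.77%) of control. B-like cells, low in nuclear RNA, held 4.28, 3.16 and 3.45% mt- RNA. Across the 17 classes the nuclear and mt- shares were weakly related, with Pearson's r of 0.34, 0.32 and 0.24 and Spearman's rho of 0.17, 0.17 and 0.03 in control, DU101 and DU102, a description over classes that share a library and a UMI total. The mt- UMIs per nuclear UMI ran from 1.06 in NK or ILC1-like to 3.26 in B-like cells in control, among the 7 classes with 200 or more cells in each library. The cell filter acts on this set directly, since the 13 genes are all the mt- features of the matrices and cells above 10% mt- UMIs were removed. Those were 17.4% of control, 9.09% of DU101 and 14.0% of DU102 barcodes.

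**Figure D1:**
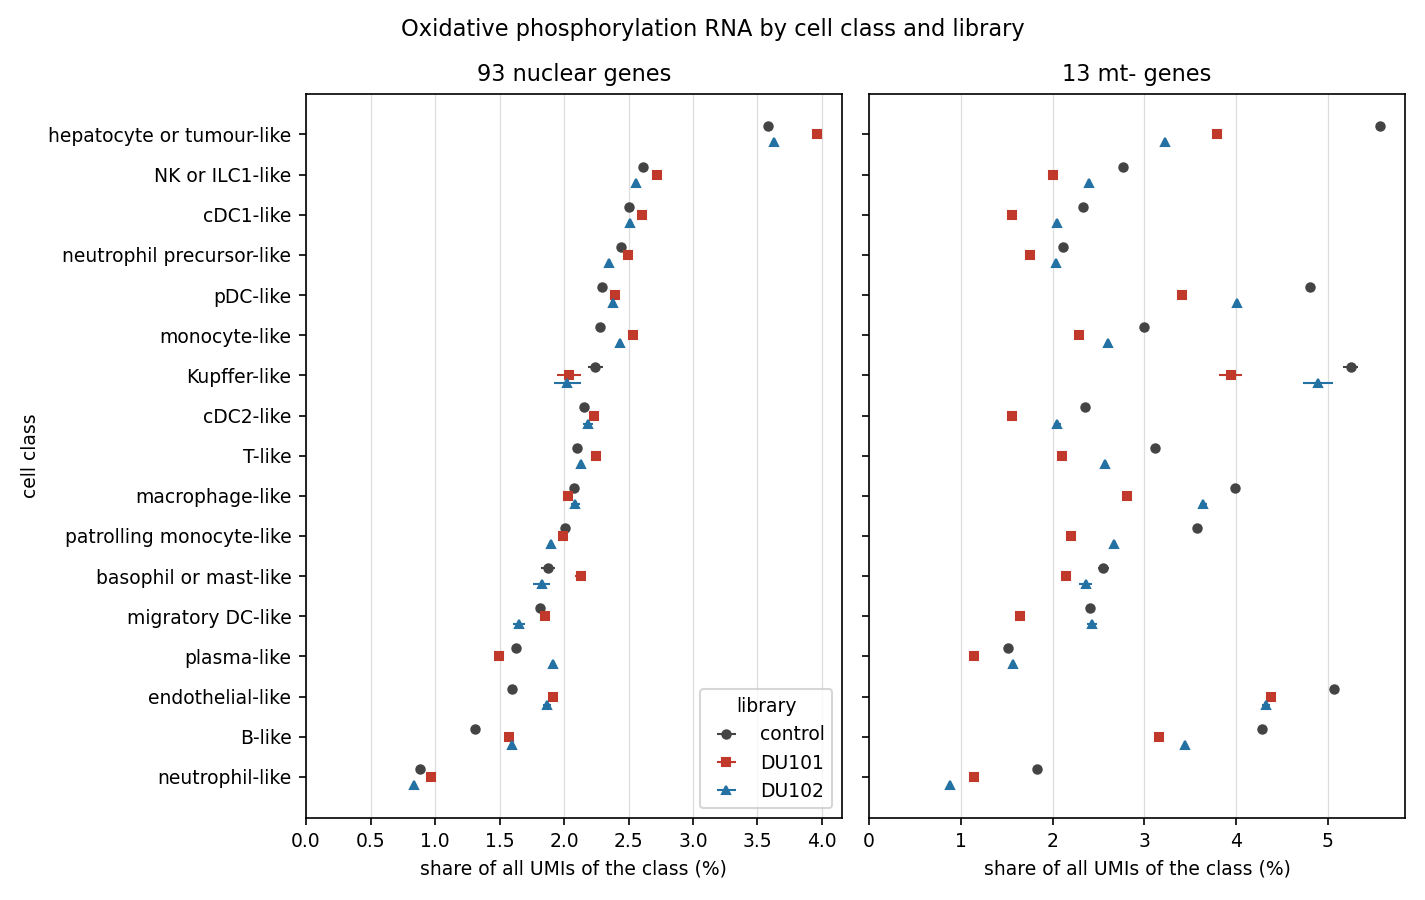
Share of all UMIs of a class (%, horizontal axes from 0) that fell on the 93 nuclear genes (left) and the 13 mt- genes (right), in 17 classes with at least 30 cells per library. Points are the 1 library of each group and bars exact Clopper-Pearson intervals, often smaller than the point. Neutrophil-like cells have the lowest nuclear share in all 3 libraries, and the control point lies furthest right on the mt- side in 15 of 17 classes.

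Gene by gene, 51 of 81 nuclear members with enough counts were lowest in neutrophil-like cells in all 3 libraries, beside 10.2% of all genes. For 54 of the 81 the highest class in all 3 libraries was hepatocyte or tumour-like cells, beside 22.0% of all genes. Uqcr11, a small subunit of complex III, stood at 1179, 1254 and 996 CPM in hepatocyte or tumour-like cells of control, DU101 and DU102. The next class had 368, 379 and 370 CPM, and the fold over it was 2.69 or more in every library. Uqcr10, of the same complex, was at 961, 1094 and 850 CPM, and the next class, NK or ILC1-like, at 377, 372 and 363 CPM. Both complex III genes were thus well separated from the other classes. Atp5o, the stalk subunit of complex V that confers oligomycin sensitivity, was at 638, 670 and 608 CPM there, with 308, 307 and 285 CPM in NK or ILC1-like cells. Ndufa1, a small subunit of complex I on the X chromosome, was highest in plasma-like cells instead, at 601, 625 and 605 CPM, at least 2.06-fold over the next class. Ndufaf2, an assembly factor of complex I, was at least 2.07-fold over the next class in hepatocyte or tumour-like cells (93.7, 169 and 117 CPM). With Cox6a2 these 6 of 92 members tested were at least 2-fold over the next class, below the 23.1% of all genes, so few members are restricted to 1 class. Only 4 of 92 members were at least 4-fold over the median class, beside 40.6% of all genes: Cox6a2, Cox6b2, Ndufaf6 and Sdhd, the membrane anchor of complex II.

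The comparison of DU101 with control asks how RNA of the members differed in treated animals, in the 7 classes that held 200 or more cells per library. The mt- set was lower in DU101 in 7 of 7 classes, with ratios from 0.616 to 0.762. In T-like cells it was 3.12% of UMIs in control and 2.11% in DU101, a ratio of 0.675 (0.671 to 0.678). Patrolling monocyte-like cells went from 3.58 to 2.20% (0.616, 0.611 to 0.622) and neutrophil-like cells from 1.83 to 1.14% (0.624, 0.617 to 0.631). NK or ILC1-like (2.76 and 2.01%, 0.726), B-like (4.28 and 3.16%, 0.738), monocyte-like (3.002 and 2.29%, 0.762) and pDC-like cells (4.81 and 3.41%, 0.708) all lay in the same direction. In the wider set of 17 classes the mt- share was below control in 17 of 17.

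The comparison of DU102 with control, which shares the control library with the first, had the mt- set lower in 7 of 7 classes as well, with ratios from 0.483 to 0.869. Neutrophil-like cells stood furthest from control, at 0.882 against 1.83%, a ratio of 0.483 (0.478 to 0.487). T-like (2.57%, ratio 0.822), NK or ILC1-like (2.40%, 0.867), B-like (3.45%, 0.805), monocyte-like (2.61%, 0.869), patrolling monocyte-like (2.67%, 0.748) and pDC-like cells (4.01%, 0.833) were nearer to it. In the wider set, 15 of 17 classes were below control, and plasma-like and migratory dendritic cell-like cells were not (1.57 against 1.52% and 2.43 against 2.41%). Set side by side, DU101 was below DU102 in 6 of 7 classes, with ratios of 0.82 in T-like to 0.918 in B-like cells, and above it in neutrophil-like cells at 1.29 (1.28 to 1.31).

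Differences of the same direction were measured without the mt- limit. With no limit on mt- UMIs the T-like share was 3.28, 2.17 and 2.66% in control, DU101 and DU102, and at a limit of 20% it was 3.22, 2.14 and 2.64%. Over all barcodes with no filter, 4.45, 2.62 and 3.38% of UMIs were mt-, against 2.15, 2.22 and 2.105% nuclear. The median cell differed in the same direction. After every cell was thinned to 1000 UMIs, the median T-like cell held 29 mt- UMIs in control against 20 in DU101 and 24 in DU102, with quartiles of 22 to 37, 15 to 25 and 18 to 31. Neutrophil-like cells had medians of 11, 9 and 7, with control quartiles as wide as 5 to 26. Of their cells 24, 106 and 89 had too few UMIs to be thinned and were left out.

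**Figure D2:**
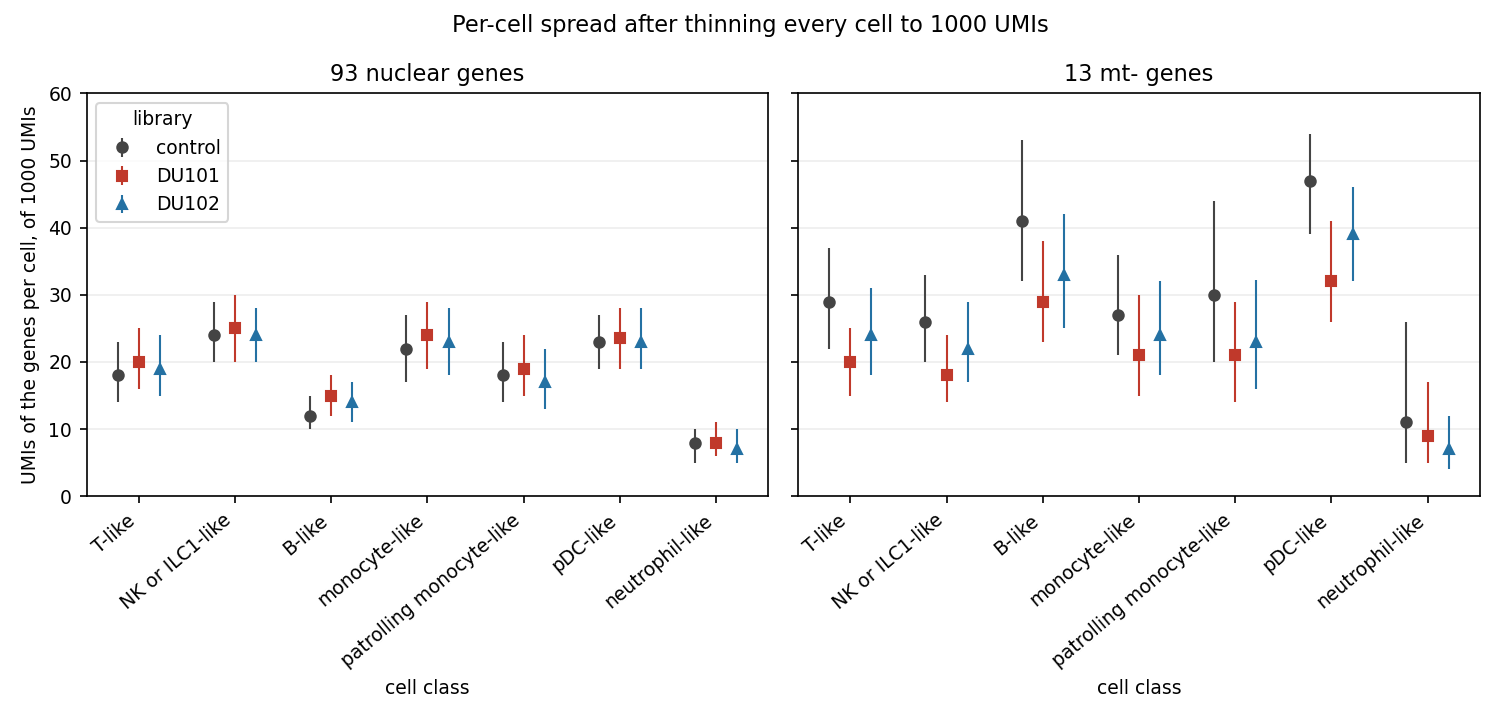
UMIs of the nuclear set (left) and the mt- set (right) per cell after thinning each cell to 1000 UMIs, for 7 classes. Points are medians over cells and bars run from the lower to the upper quartile, within 1 library per group. The mt- median of control is the highest of the 3 libraries in every class shown, while nuclear medians differ by at most 3 UMIs.

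The classes are not of the same make-up in every library, so the shares were also read within clusters of the joint clustering. This choice was made after the data were seen. The largest cluster of T-like cells was cluster 6 in control (31.6%, led by Dapl1, Lef1 and Tcf7) but cluster 1 in DU101 and DU102 (27.8 and 34.6%, led by Gzmk, Cd8a and Pdcd1). Neutrophil-like cells were 86.4% in cluster 18 in control (Cxcl2, Acod1, Il1b), against 42.1 and 48.5% in the treated libraries, where 38.0 and 34.5% were in cluster 19 (Retnlg, Mmp8, Cxcr2) with 7.39% of control. Patrolling monocyte-like cells were 47.0, 71.5 and 65.7% in cluster 9. In 13 pairs of class and cluster with at least 50 cells in every library, the mt- share was below control in 13 of 13 in both treated libraries, with median ratios of 0.722 in DU101 and 0.847 in DU102. Within cluster 18 of neutrophil-like cells the ratios were 0.762 and 0.650, nearer to 1 than over the whole class. Within cluster 9 of patrolling monocyte-like cells the shares were 2.80, 2.06 and 2.21%.

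Sex was read in the same way. Control T-like cells with Xist alone held 3.11% mt- UMIs and those with Y-linked RNA alone 3.12%, against 2.13 and 2.54% in cells with Y-linked RNA alone of DU101 and DU102. In NK or ILC1-like cells the values were 2.75 and 2.71% in control, then 1.99 and 2.37%. Patrolling monocyte-like cells were the exception within control, at 3.12% with Xist and 4.34% with Y-linked RNA, and neutrophil-like cells differed the other way, at 2.12 and 1.65%. Treated patrolling monocyte-like cells with Y-linked RNA held 2.12 and 2.69%, below both control values, and treated neutrophil-like cells 1.14 and 0.898%. Dividing T-like cells, with at least 3 of 8 cell cycle genes, held 3.03, 1.91 and 2.33% mt- UMIs, and those with none 3.21, 2.19 and 2.69%.

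Other RNA differed between the libraries too, in more than 1 direction. In the 7 classes the ratio of Gm42418 to control was 0.287 to 0.476 in DU101 and 0.66 to 0.773 in DU102. Lars2, the leucyl-tRNA synthetase of mitochondria, went with it, at 2012, 571 and 1461 CPM in T-like cells. Neutrophil genes together were higher in treated libraries in every class: 7.39 and 13.9 times control in T-like, 13.2 and 24.9 times in pDC-like and 2.04 and 2.89 times in NK or ILC1-like cells. In neutrophil-like cells themselves they were at 177077, 335226 and 377006 CPM in control, DU101 and DU102. The trimmed UMI total did not leave these genes out, so every share and ratio of that class is read beside this difference. The hepatocyte gene list ranged from 0.6 to 1.37 times control in DU101 and from 0.743 to 1.63 times in DU102. The 5 erythroid genes together differed most and in no single direction. They were at 114, 8.57 and 6115 CPM in patrolling monocyte-like cells of control, DU101 and DU102, and at 1234, 4.29 and 1452 CPM in B-like cells. Monocyte-like cells held them at 926, 3.04 and 39.7 CPM, NK or ILC1-like cells at 885, 14.1 and 39.2 CPM and pDC-like cells at 24.5, 4.28 and 497 CPM. In T-like cells the values were 33.7, 127 and 414 CPM, and in neutrophil-like cells 57.1, 171 and 1456 CPM. The part of these in the mt- difference was not tested, and neither was that of depth, with T-like medians of 5469, 4051 and 4816 UMIs.

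Across single mt- genes, 31 of 91 pairs of gene and class were called lower in DU101 and 0 higher. A pair is called when its ratio reaches 1.5-fold, its interval lies on the same side of 1 and both libraries together hold at least 30 UMIs, a rule of size and not a test. Over all genes and the 7 classes 7.67% of pairs were called lower and 4.48% higher. In DU102, 17 of 91 mt- pairs were called lower and 0 higher, against 5.92% lower and 4.3% higher over all genes. Of the 31 calls, patrolling monocyte-like cells gave 9 and neutrophil-like cells 11, and there 12.6 and 16.9% of all genes were called lower. In T-like cells 4 were called, with 4.6% of all genes, in pDC-like cells 4 (4.39%), and in NK or ILC1-like, B-like and monocyte-like cells 1 each (5.04, 7.38 and 4.81%). In DU102 neutrophil-like cells gave 12 of the 17, where 27.7% of all genes were called, patrolling monocyte-like cells 3 (2.93%), T-like cells 1 (2.06%) and pDC-like cells 1 (2.03%).

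Complex I of the mt- genome has 7 genes (mt-Nd1 to mt-Nd6 and mt-Nd4l), all part of its membrane arm. Together their ratios were 0.477 to 0.823 in DU101 and 0.316 to 0.965 in DU102, lowest in neutrophil-like and highest in monocyte-like cells. mt-Nd3 was the mt- gene furthest below control in T-like and neutrophil-like cells. It was at 330, 192 and 202 CPM in T-like cells of control, DU101 and DU102, with ratios of 0.582 (0.555 to 0.611) and 0.613 (0.583 to 0.644). In neutrophil-like cells mt-Nd3 was at 213, 66.2 and 49.4 CPM, with ratios of 0.31 and 0.232. Both treated libraries lay far below control there, and within cluster 18 alone the mt-Nd3 ratios were 0.524 and 0.422. mt-Nd1 in neutrophil-like cells was at 1174, 499 and 316 CPM and mt-Nd2 at 896, 370 and 241 CPM. mt-Nd4l stood apart from these, at 297, 311 and 316 CPM in B-like and 215, 222 and 245 CPM in monocyte-like cells. It was level with control or above it in those classes, with ratios of 1.05 (0.932 to 1.17) and 1.06 (0.968 to 1.17) in B-like cells, and it shares 7 bases with mt-Nd4, so reads in that stretch are uncertain. mt-Nd6, the only mt- member on the other strand, overlaps mt-Nd5 by 14 bases and had low counts, from 8.95 to 53.3 CPM over the 7 classes.

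mt-Cytb, the cytochrome b of complex III, was at 2291, 1587 and 1766 CPM in T-like, 3258, 2512 and 2652 in B-like and 1280, 655 and 474 in neutrophil-like cells. It was below control in every one of the 7 classes in both treated libraries. The catalytic core of complex IV is encoded by mt-Co1, mt-Co2 and mt-Co3. mt-Co3 was at 6525, 3950 and 5041 CPM in T-like cells, with ratios of 0.605 (0.599 to 0.612) and 0.773 (0.764 to 0.781). mt-Co1 was at 4766, 3631 and 4604 CPM in the same cells, with ratios of 0.762 and 0.966, so in DU102 T-like cells the 2 genes were not lower to the same degree. In neutrophil-like cells mt-Co1 was at 3092, 3013 and 2449 CPM, with ratios of 0.975 (0.952 to 0.998) and 0.792 (0.775 to 0.809), the least lower of the 13 genes there. It made up 16.9% of mt- UMIs in control neutrophil-like cells and 26.4 and 27.8% in the treated ones. Within cluster 18 the mt-Co1 ratios were 1.01 (0.972 to 1.05) and 0.891, and within cluster 19 they were 1.14 and 0.90. The mt- complex I genes together were at 0.711 and 0.547 in cluster 18 and 0.551 and 0.39 in cluster 19.

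The pair of mt- genes for complex V is mt-Atp6, part of the proton channel, and mt-Atp8. mt-Atp6 was at 7187, 4525 and 5637 CPM in T-like, 7620, 4124 and 5328 CPM in patrolling monocyte-like and 3597, 1956 and 1574 CPM in neutrophil-like cells. Control was the highest in each, and the T-like ratios were 0.63 (0.623 to 0.636) and 0.784 (0.777 to 0.792). mt-Atp8 was at 153, 110 and 140 CPM in T-like cells. It overlaps mt-Atp6 by 43 bases, and mt-Atp6 overlaps mt-Co3 by 1, so reads there are uncertain. In DU101, 12 of 13 mt- genes were below control in all 7 classes, the other being mt-Nd4l. The same held for 8.85% of all genes. In DU102 it was 10 of 13, without mt-Nd4l, mt-Nd5 and mt-Nd6, beside 2.1% of all genes.

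**Figure D3:**
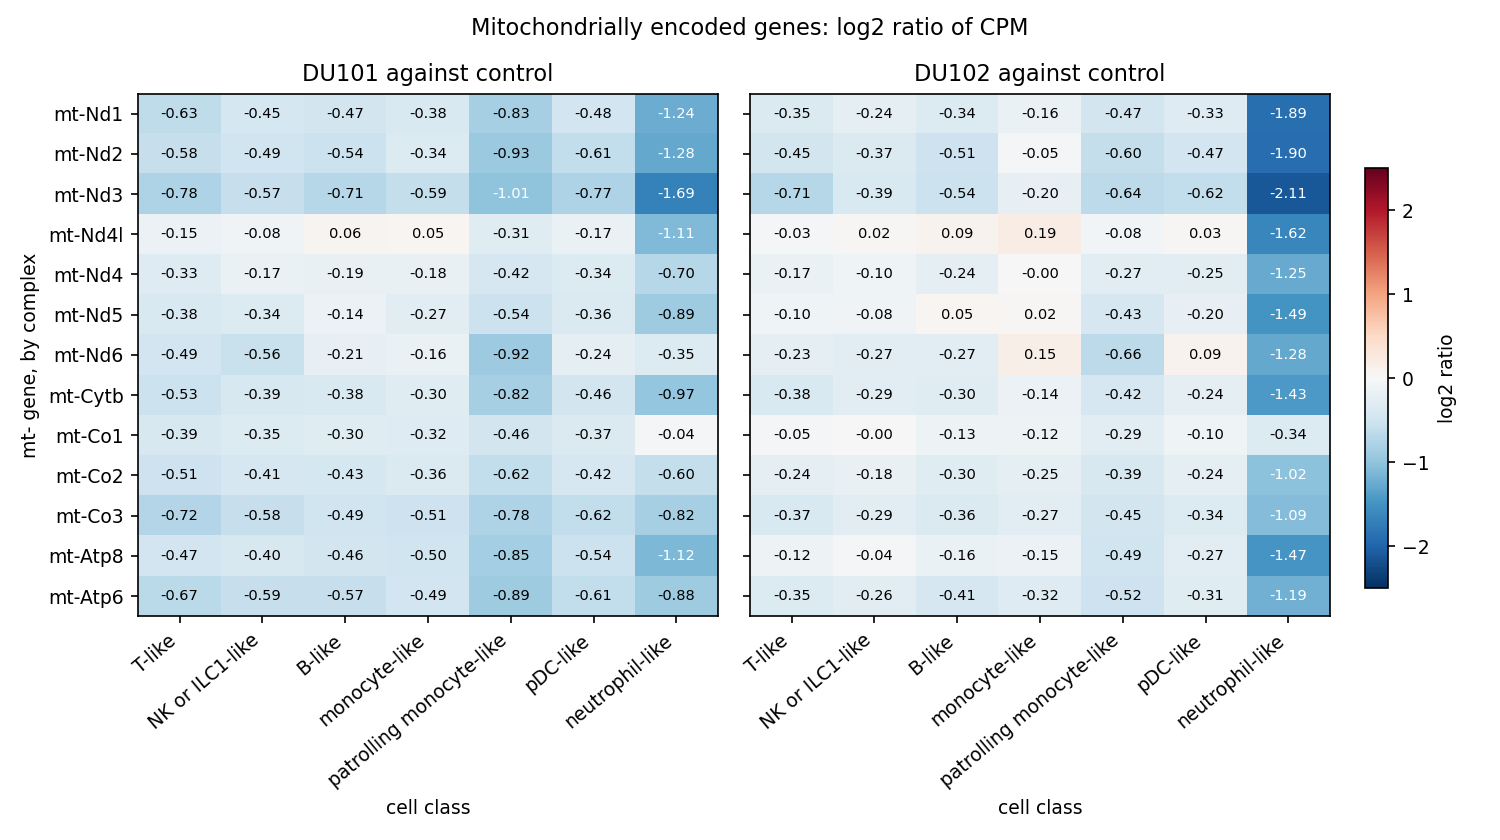
log2 ratio of CPM to control for each of the 13 mt- genes (rows, by complex) in 7 classes (columns), for DU101 (left) and DU102 (right), with 1 library per group and no test. Blue is below control and red above. The column of neutrophil-like cells is the darkest for most complex I genes, mt-Co1 is paler there, and mt-Nd4l is the palest row in several other classes.

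The nuclear set did not share this pattern. Its share was higher in DU101 than control in 6 of 7 classes, with ratios from 0.994 to 1.20, and in DU102 in 4 of 7, from 0.944 to 1.21. B-like cells stood highest in both, at 1.31, 1.57 and 1.59% of UMIs, with ratios of 1.20 (1.18 to 1.22) and 1.21 (1.20 to 1.23). Among B-like cells with no cell cycle gene, the shares were 1.251, 1.51 and 1.40%, so DU102 was nearer to control there, and 22 dividing B-like cells of DU102 held 2.79%. Patrolling monocyte-like cells stood lowest over the whole class, at 0.994 (0.984 to 1.00) and 0.944 (0.935 to 0.954). Within cluster 9 of that class both directions turned, with nuclear ratios of 1.14 (1.12 to 1.15) and 1.04 (1.03 to 1.06). Control cells of the whole class held 1.91% nuclear UMIs with Xist alone and 2.27% with Y-linked RNA alone. Cells of that class with Y-linked RNA alone held 1.956% in DU101 and 1.960% in DU102. Over the 13 pairs of class and cluster, the nuclear share was above control in 12 in DU101 and in 8 in DU102. In T-like cells the ratios were 1.07 (1.06 to 1.07) and 1.01 (1.01 to 1.02), and the second was below 1 under 3 other scalings (log2 of -0.06 to -0.03). Of the trimmed UMI total, the T-like share was 3.579% in control and 3.585% in DU101, and the pDC-like share 3.38 and 3.40%. B-like cells stayed apart by that total, at 2.36 and 2.69%, while patrolling monocyte-like cells were lower in DU101, at 2.83 and 2.69%. In neutrophil-like cells the median gene was itself below control, by a log2 of -0.16 in DU101 and -0.33 in DU102, and values there are read beside it. The nuclear ratios of this class were 1.10 (1.08 to 1.11) and 0.948 (0.936 to 0.960), and the second was above 1 when the libraries were scaled to the median gene (log2 of 0.26). The mt- UMIs per nuclear UMI were 1.48, 0.937 and 1.21 in T-like, 3.26, 2.01 and 2.16 in B-like and 2.06, 1.18 and 1.05 in neutrophil-like cells. Control was the highest of the 3 libraries in all 7 classes.

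**Figure D4:**
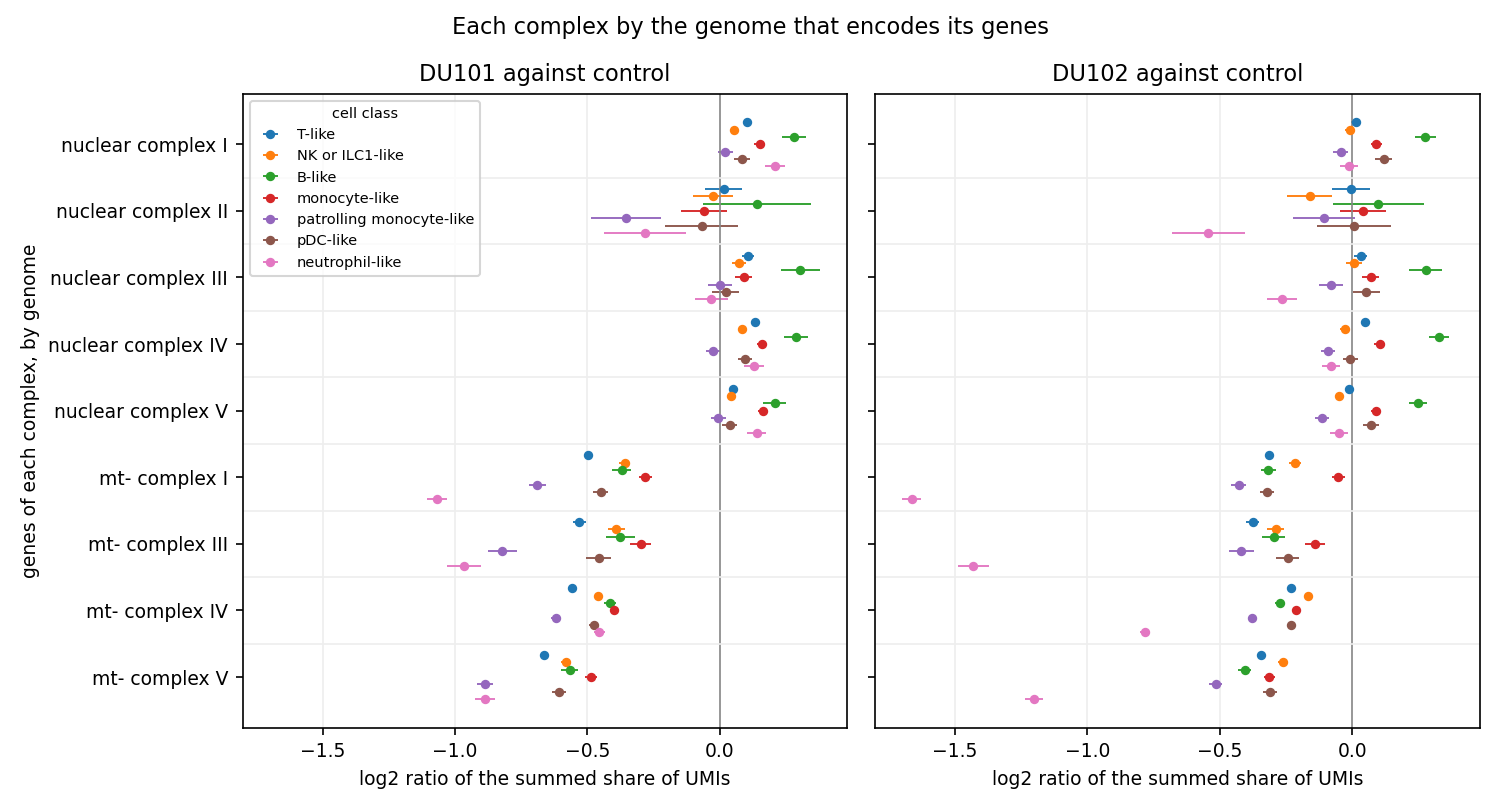
log2 ratio of the summed share of UMIs to control for the genes of each complex, nuclear and mt- apart (rows), in 7 classes (colours), for DU101 (left) and DU102 (right). Bars are exact Poisson intervals for counting error, with 1 library per group. All mt- rows lie left of 0 in both panels, while nuclear rows lie near or right of 0 in most classes. The nuclear point furthest left is complex II in neutrophil-like cells of DU102.

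Calls by size among nuclear members were counted next. In DU101, 9 of 597 pairs of gene and class were called higher and 1 lower, which is 1.51 and 0.168% and below the 4.48 and 7.67% of all genes. Over all 106 members, the 9 higher pairs were 19 when scaled by median gene ratios, 21 by the TMM scaling of edgeR and 30 against control cells with Y-linked RNA alone, and the share of all genes called was not computed under those settings. In DU102, 7 of 600 were called higher and 5 lower, which is 1.17 and 0.833%, below the 4.3 and 5.92% of all genes. DU101 against DU102 gave 6 higher and 3 lower of 599, beside 3.99 and 6.24% of all genes, and of the mt- pairs 4 of 91 were higher. These 4 were mt-Nd1, mt-Nd2, mt-Nd5 and mt-Nd6 of complex I in neutrophil-like cells, with ratios from 1.52 to 1.90, where 9.57% of all genes were called higher. Ndufc2, a small subunit of complex I, was the nuclear gene called with them on the most UMIs, at 49.1 CPM in DU101 and 31.1 CPM in DU102. Ndufa9 (1.58) and the assembly factor Ndufaf5 (18 and 14 UMIs) were called higher in DU101 than DU102 B-like cells beside 3.51% of all genes, and Ndufaf1 in T-like cells (1.64, 1.27 to 2.14) beside 3.23%. Small ratios in 1 direction were more common than calls: 18 of 82 nuclear members counted in every class were above control in all 7 classes in DU101, beside 4.85% of all genes, and 6 of 82 in DU102, beside 2.33%. These counts use ratios on the UMI total and ask nothing of the interval. In DU101 the lowest ratio of Atp5mpl was 1.003, and the interval lay above 1 in 2 of 7 classes for Ndufa11 and in 7 for Ndufa3. The 18 were Atp5e, Atp5j, Atp5md, Atp5mpl, Cox5b, Cox6b1, Cox7a2, Cox7c, Ndufa1, Ndufa2, Ndufa3, Ndufa11, Ndufa13, Ndufb2, Ndufb7, Ndufb10, Ndufb11 and Uqcrh. The 6 were Atp5h, Cox5b, Ndufb3, Ndufb11, Ndufs4 and Uqcrh. Sdhc, an anchor of complex II, was below control in all 7 classes in DU101.

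Nuclear complex I had summed ratios of 1.02 to 1.21 in DU101 and 0.971 to 1.21 in DU102. Ndufa13, a membrane arm subunit, was at 183, 273 and 232 CPM in B-like cells, with ratios of 1.49 (1.30 to 1.70) and 1.27 (1.13 to 1.43). In T-like cells Ndufa13 was at 377, 441 and 405 CPM, so control was the lowest library in both classes. Ndufb7 was at 181, 261 and 219 CPM in neutrophil-like cells. Ndufa2 differed less, at 344, 362 and 341 CPM in T-like cells, and Ndufa6 was at 310, 412 and 352 CPM in patrolling monocyte-like cells. Called higher in DU101 were Ndufa8 (49.3 to 75.4 CPM) and Ndufa9 (28.6 to 45.4 CPM) in B-like cells, where 3.72% of all genes were called higher. In neutrophil-like cells they were Ndufa3 (133 to 215 CPM, 1.62, 1.46 to 1.80) and Ndufs4 (44.5 to 67.0 CPM), where 8.14% of all genes were called higher. In DU102 Ndufa12 (39.0 to 23.6 CPM) and Ndufs3 (18.8 to 12.5 CPM) were called lower in neutrophil-like cells, where 27.7% of all genes were.

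Assembly factors of complex I help to build it and are not part of the finished enzyme. Their summed ratio was 1.27 in DU101 and 1.21 in DU102 in monocyte-like cells, and 0.948 to 1.17 and 0.919 to 1.14 in the other 6 classes. Ndufaf2 was at 15.2, 24.6 and 18.6 CPM in monocyte-like cells, called higher in DU101 at 1.62 (1.254 to 2.11), where 5.01% of all genes were called higher. Ndufaf1 went in different directions by class and library. It was at 9.08 CPM in control and 15.1 in DU101 NK or ILC1-like cells, called higher at 1.66 (1.27 to 2.18) beside 3.11% of all genes. In T-like cells it was at 10.3 and 6.49 CPM in control and DU102, called lower at 0.631 (0.471 to 0.841) beside 2.06%. Ndufaf7 was called higher in DU102 neutrophil-like cells (10.7 to 17.0 CPM), with 6.44% of all genes. Ndufaf6 was called higher in DU102 pDC-like cells on 16 and 25 UMIs, with 3.5% of all genes. Ndufaf8 (60.4, 69.5 and 63.5 CPM), Ndufaf4 (45.5, 43.1 and 39.8 CPM) and Ndufaf3 (21.6, 29.4 and 26.8 CPM) in T-like cells were not called in any of the 7 classes.

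Complex II, also the succinate dehydrogenase of the citric acid cycle, is wholly nuclear. It was the nuclear complex furthest below control in neutrophil-like cells of both treated libraries and in patrolling monocyte-like cells of DU101. Its 4 genes together were at 0.822 (0.739 to 0.915) in DU101 and 0.686 (0.624 to 0.756) in DU102 of control in neutrophil-like cells, and at 0.783 (0.714 to 0.857) and 0.929 (0.856 to 1.01) in patrolling monocyte-like cells. The make-up of both classes differed between libraries, and complex II was not read within clusters. Sdha, the flavoprotein subunit that holds the active site, was at 50.2, 34.0 and 25.3 CPM in neutrophil-like cells, and the DU102 ratio of 0.503 (0.415 to 0.610) was called, beside the 27.7% of all genes called lower there. Sdhb, the iron-sulphur subunit, was at 53.8, 51.3 and 41.9 CPM, Sdhc at 18.8, 17.2 and 16.9 CPM and Sdhd at 49.5, 39.1 and 34.2 CPM in the same class. Control was the highest library for each of the 4 genes. In patrolling monocyte-like cells Sdhc was at 49.8, 35.0 and 57.8 CPM, called lower in DU101 than in DU102 at 0.605 (0.469 to 0.777) beside 12% of all genes, so DU102 was not below control there. In T-like cells the complex II ratios were 1.01 (0.963 to 1.06) and 0.997 (0.948 to 1.05).

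Nuclear complex III had summed ratios from 0.978 in neutrophil-like to 1.24 in B-like cells in DU101 and from 0.832 to 1.21 in the same classes in DU102. Of its genes, Uqcrh, the hinge protein near cytochrome c1, was above control in all 7 classes in both treated libraries. It was at 606, 753 and 675 CPM in B-like cells, with ratios of 1.24 (1.15 to 1.34) and 1.11 (1.04 to 1.19), and at 245, 273 and 254 CPM in neutrophil-like cells. The other small subunits went the other way in neutrophil-like cells. Uqcrq was at 226, 197 and 152 CPM, Uqcr10 at 167, 146 and 114 CPM and Uqcr11 at 112, 99.3 and 73.6 CPM, where the DU102 ratio of 0.66 (0.585 to 0.744) was called lower, again beside 27.7% of all genes. In B-like cells the same 3 were highest in DU102, as with Uqcr11 at 111, 138 and 165 CPM.

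Nuclear complex IV had summed ratios from 0.983 in patrolling monocyte-like to 1.22 in B-like cells in DU101 and from 0.94 to 1.26 in the same classes in DU102. Cox4i1, the common form of the regulatory subunit 4, was at 787, 840 and 871 CPM in T-like and 613, 672 and 737 CPM in B-like cells. Cox7c was at 214, 312 and 249 CPM in neutrophil-like cells, with ratios of 1.46 (1.34 to 1.58) and 1.16 (1.08 to 1.26), while Cox8a in the same cells was at 551, 468 and 418 CPM, with ratios of 0.85 (0.802 to 0.902) and 0.76 (0.721 to 0.801). Subunits of 1 complex thus went in opposite directions within 1 class. Cox6c was at 344, 423 and 483 CPM in B-like cells, with ratios of 1.23 and 1.41. Nuclear complex V had summed ratios of 0.997 to 1.15 in DU101 and 0.924 to 1.19 in DU102, again lowest in patrolling monocyte-like and highest in B-like cells. Atp5e, the epsilon subunit of the ATP synthase, was at 918, 978 and 896 CPM in T-like and 752, 889 and 686 CPM in patrolling monocyte-like cells. Atp5l was at 420, 505 and 465 CPM, Atp5h at 374, 412 and 408 CPM and Atp5g2, a copy of the membrane ring subunit, at 415, 478 and 509 CPM in B-like cells. Atp5j, coupling factor 6, was at 157, 193 and 245 CPM in B-like cells and the DU102 ratio of 1.56 (1.38 to 1.76) was called, where 5.31% of all genes were called higher.

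Tissue-restricted forms of complex IV subunits gave the sharpest pattern between classes. Cox6a2 (ENSMUSG00000030785, mm10 chr7:128205435-128206387, minus strand) is known as the heart and muscle form of subunit 6A. It was at 1288, 1419 and 1015 CPM in pDC-like cells of control, DU101 and DU102, on 3997, 3646 and 2407 UMIs. The next class was NK or ILC1-like at 12.4 CPM in control and 25.5 CPM in DU102, and Kupffer-like at 11.3 CPM in DU101 on 1 UMI. pDC-like cells were at least 39.8-fold over the next class in every library. A Cox6a2 UMI was seen in 89.2% (85.6 to 92.1), 90.9% (87.6 to 93.6) and 79.8% (74.7 to 84.2) of pDC-like cells, with median depths of 8139, 6662 and 7810 UMIs. In T-like cells, which serve as a background, it was in 0.377, 0.563 and 0.528% at medians of 5469, 4051 and 4816 UMIs. DU102 was thus the lowest library for this gene in pDC-like cells, at 0.788 (0.749 to 0.829) of control, with DU101 at 1.10 (1.05 to 1.15), neither of which was called. Cox6a1, its common counterpart, was at 265, 287 and 299 CPM in pDC-like cells and from 155 to 432 CPM over the 17 classes.

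**Figure D5:**
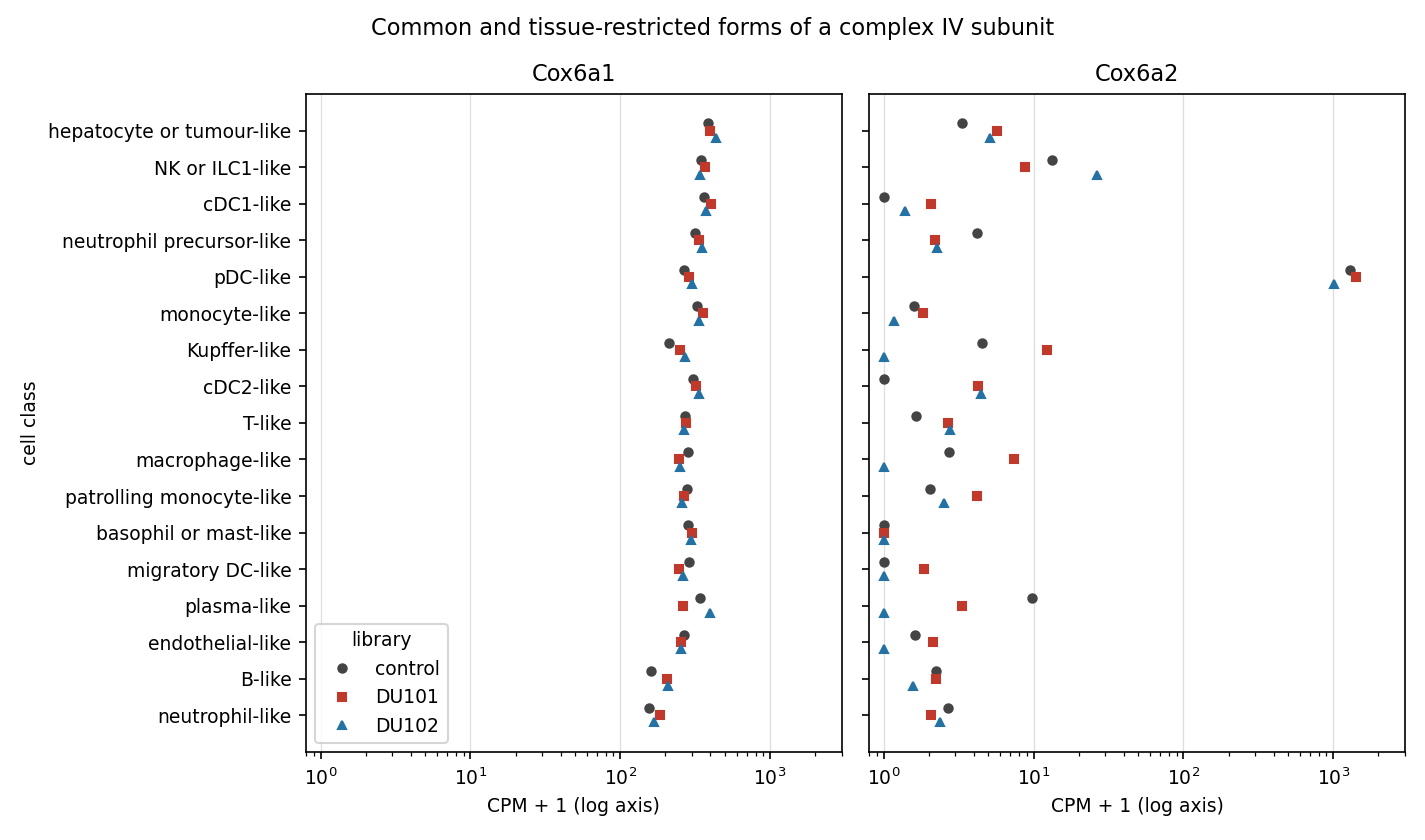
CPM plus 1 (log axis) of Cox6a1 (left) and Cox6a2 (right) in 17 classes, with 1 point per library. Cox6a1 stays in a narrow band in every class, while Cox6a2 lies above 1000 CPM in pDC-like cells and below 30 CPM in every other class.

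The Cox6a2 calls outside pDC-like cells rest on few cells. In NK or ILC1-like cells it was at 12.4, 7.78 and 25.5 CPM, called lower in DU101 and higher in DU102 (5.04% and 3.49% of all genes in those directions), from 33, 20 and 27 cells. DU101 was called lower than DU102 there at 0.305 (0.217 to 0.423), beside 6.24% of all genes. A single cell held 49 of 170 UMIs in control, 13 of 52 in DU101 and 32 of 137 in DU102. Among those with 3 or more UMIs (13, 6 and 15 cells) 0 held Siglech, the defining receptor of pDCs, and they carried 6.69, 7.5 and 6.87 of 8 NK or ILC1 markers on average. NK or ILC1-like cells without Cox6a2 carried 6.13, 6.02 and 6.02. Both marker panels set the class, Siglech among them, so these counts follow in part from the gate. The source of this Cox6a2 RNA was not tested. Among all NK or ILC1-like cells with a Cox6a2 UMI, 0, 0 and 2 held Siglech. In DU102 that is 7.41% of 27 cells, against 1.47% of those without Cox6a2, and 9 of the 27 held 2 or more pDC markers. In T-like cells, with 4.28 and 3.88% of all genes called higher in DU101 and DU102, the called Cox6a2 ratios rest on 7, 29 and 24 UMIs, with 1 cell giving 11 of them in each treated library. The genes outside the set with the most similar pattern over 51 pairs of class and library, by Pearson's r of log2 (CPM + 10), were Klk1, Grm8, Fbxl13, Sh3bgr and Robo3, with r of 0.972 to 0.976. Klk1 is itself a marker used to find pDC-like cells. These points share libraries, and the likeness rests on 1 class.

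Cox6b2, known from testis, had its highest level in cDC2-like cells, a class of conventional dendritic cells, at 56.2, 56.4 and 57.3 CPM, and stood at 46.4, 37.3 and 28.5 CPM in neutrophil precursor-like cells. Of the latter class, 28.6% of DU102 cells were in cluster 15, which also held 211 of 212 hepatocyte or tumour-like cells. Monocyte-like cells had 21.6, 24.3 and 21.1 CPM, with no called difference. In pDC-like cells Cox6b2 had 5, 8 and 30 UMIs, called higher in DU102 against control at 7.85 (3.02 to 25.9), where 3.5% of all genes were called. DU101 was called lower than DU102 in those cells, beside 6.19% of all genes. The gene was also called higher in DU101 T-like (20 and 61 UMIs) and neutrophil-like cells (14 and 33 UMIs), beside 4.28 and 8.14% of all genes. In DU102 it was called higher in NK or ILC1-like cells (28 and 21 UMIs), beside 3.49%. Cox6b2 was called higher in DU101 than DU102 in T-like and neutrophil-like cells, beside 3.23 and 9.57%. Its common counterpart Cox6b1 was at 431, 434 and 428 CPM in pDC-like cells. Cox7a1, the heart and muscle form of subunit 7A, was highest in hepatocyte or tumour-like cells, at 10.9, 10.9 and 7.90 CPM, beside 683, 801 and 676 CPM of the common Cox7a2. Ndufa4l2, a form induced in low oxygen, had 19, 1 and 21 UMIs in hepatocyte or tumour-like cells (7.42, 0.678 and 5.72 CPM) and Ndufa4 920, 1019 and 1035 CPM. Most like Ndufa4l2 were Hunk, Slc23a3, Krt19, Hamp and Adh1, with r from 0.922 to 0.940. Cox4i2, the low-oxygen form of subunit 4, had 117 UMIs over all barcodes, Cox8c 1, and Cox7b2 and Cox8b 0.

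Pathways next to the members were counted from lists of their genes, described by the median log2 ratio beside that of all genes. In B-like cells the nuclear set had medians of 0.28 in DU101 and 0.31 in DU102, glycolysis genes 0.32 and 0.32, and all genes -0.03 and 0.05. Of 15 glycolysis genes measured there, 1 was called higher in DU101 (3.72% of all genes), and 2 higher (5.31%) and 1 lower in DU102, where 298 of 8662 genes were called lower. Citric acid cycle genes had medians of -0.14 and 0.14 in B-like, -0.20 and -0.38 in neutrophil-like and -0.30 and -0.01 in patrolling monocyte-like cells. They were thus near the medians of all genes in neutrophil-like cells (-0.16 and -0.33). Of 16 such genes, 1 was called lower in DU101 and 2 in DU102 there, beside 16.9 and 27.7% of all genes. Assembly factors of complexes II to V had medians within -0.11 and 0.12 in DU101 in all 7 classes, and -0.31 in DU102 neutrophil-like cells. The list for mitochondrial DNA copying and expression had a T-like median of -0.12 in DU101 and -0.02 in DU102. Its summed ratios were 0.405 and 0.771, since Lars2 makes up most of its UMIs. Regulators of mitochondrial biogenesis had 4 of 8 genes called lower in DU101 patrolling monocyte-like cells, with a median of -0.60 beside -0.11 for all genes, of which 12.6% were called lower there. The make-up of that class differed between libraries, and this list was not read within clusters. Cytosolic ribosomal protein genes, a comparison list, had medians of 0.03 in DU101 and -0.27 in DU102 neutrophil-like cells and 0 of 27 called.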

How the data were processed

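Sorted CD45+ cells of 3 libraries were measured by 3' droplet RNA-seq. The values are raw counts of UMIs per gene and barcode, deposited by the authors. The counting tool was Cell Ranger 6.0.0 per the file headers, but Cell Ranger 2.1.1 and mm10 are named per the submitters' processing notes, and an annotation release was not given in the sources used here. Deposited tables of cluster averages tie no barcode to a cluster and were not used. 0 other sample columns were present.

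Kept cells had 200 genes or more and at most 10% mt- UMIs. Doublets were called per library with Scrublet in scanpy 1.11.5 at an expected rate of 0.008 per 1000 barcodes, on cells with at most 20% mt- UMIs, and 284 control, 470 DU101 and 257 DU102 barcodes were removed. A cell took the class of 1 of 19 panels (150 markers in all) when it held at least 3 of its markers and at least 2 more than of any other panel. Joint clustering used 2000 variable genes, 30 principal components, 15 neighbours and a resolution of 1.0. UMIs were summed per class and library and divided by the UMI total of the class, so a share can differ because other genes differ. A pair of gene and class was called at 1.5-fold or more with the exact interval on that side of 1 and at least 30 UMIs over both libraries. An undetected gene allows up to 3 counts. Likeness between genes used log2 (CPM + 10).

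Named genes were the 13 mt- genes, the 4 members of each nuclear complex with the most UMIs, the 2 highest and 2 lowest called members per comparison and class, the tissue-restricted forms and their common counterparts, the 5 members furthest above the next or the median class, and the 5 genes most like a member singled out. Names outside this rule were chosen after their values were seen. The members and the lists were chosen with earlier results of these data known. Alternatives changed the mt- limit, gene minimum, doublet step, gate, clusters, UMI total, scaling (edgeR 4.0.16 TMM in R 4.3.3 among them), thinning to 1000 UMIs, weight of cells, control cells by sex, and the fold and UMI minimum. Calculations were tested on simulated data and ran in Python 3.11.15 with pandas 2.3.3, numpy 2.4.6, scikit-learn 1.9.0, scipy 1.17.1, matplotlib 3.10.9, igraph 0.11.9 and anndata 0.12.19.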

Additional observations from a re-analysis of the deposited data

How the results depend on the processing

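No paired analysis was possible because each group has 1 library, which also leaves no replicate to leave out. Under every alternative tried, the mt- share was higher than control in 0 of 7 classes in both treated libraries, and higher in DU101 than DU102 in 1. The log2 ratio of the mt- set to control ran from -0.66 to -0.55 in T-like cells of DU101, from -0.98 to -0.47 in patrolling monocyte-like cells of DU101 and from -1.12 to -0.70 in neutrophil-like cells of DU102. Classes with a higher nuclear share than control numbered 6 to 7 in DU101 and 3 to 5 in DU102.

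Counts of called pairs of member and class depended on the settings, and the cause was not tested. They take nuclear and mt- members together. The share of all genes called was not computed under the other settings, so the counts there have no background to be read against. For DU101 over control, 9 pairs were called higher: 16 by clusters in place of gates, 19 with thinned cells, 19 by median gene ratios, 21 by TMM, and 30 against the control cells that held Y-linked RNA without Xist. The 32 called lower were 16 at an mt- limit of 5% and 52 against those control cells. For DU102 over control, the 7 called higher were 14 by median gene ratios, 14 by TMM and 29 against those control cells, and the 22 called lower were 36 there. For DU101 over DU102, the 10 called higher were 5 with no mt- limit, 4 by clusters and 6 by TMM, and the 3 called lower were 7 by clusters and 8 with thinned cells. With the fold threshold at 25% above equality, the higher and lower calls were 64 and 91 (DU101 over control), 54 and 69 (DU102 over control) and 52 and 27 (DU101 over DU102). At 2-fold they were 2 and 6 in the first and 4 and 12 in the second, with 2 higher in the third.

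Directions turned for the nuclear set where it was close to 1. DU102 over control in T-like cells had a log2 ratio of -0.055 with a trimmed UMI total, -0.0395 by median gene ratios and -0.033 by TMM. In neutrophil-like cells it was 0.036 by clusters, 0.26 by median gene ratios and 0.27 by TMM. DU101 over DU102 was -0.00595 by clusters in monocyte-like cells, and -0.071 by clusters and -0.00615 in cells whose gate and cluster name were alike in patrolling monocyte-like cells. The last alternative, the one without barcodes seen in more than 1 library and the reading within clusters were chosen after seeing the data. Of 54 results, the other values of the main ones were the same in 173 cases and moved in 27. Those of the remaining results gave 346 within counting error of the reported value, 303 outside it and 9 reversed. The 346 and 303 include turns of sign in 3 nuclear ratios whose reported interval held 1: DU101 over control in patrolling monocyte-like cells, with log2 ratios from -0.19 to 0.11 over the alternatives, and DU101 over DU102 in B-like (-0.053 to 0.094) and pDC-like cells (-0.016 to 0.088).

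Counting depth limits the weakest members: calls of Cox6a2 outside pDC-like cells, Cox6b2 and Ndufaf6 rest on few UMIs. Library, sex, treatment and cell make-up cannot be told apart beyond the readings given.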
